A study of Mus musculus with 7 samples.

Results

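The CXC chemokine genes examined here were *Cxcl1*, *Cxcl2*, *Cxcl3*, *Cxcl5*, *Cxcl9*, *Cxcl10*, *Cxcl14* and *Cxcl16*, and their members are the open chromatin regions (ATACseq peaks) that carry one of these 8 gene symbols. There were 35 such peaks of 90376 in all, in 7 of the 8 genes. *Cxcl1* had 9 peaks, *Cxcl5* 8, *Cxcl9*, *Cxcl10* and *Cxcl14* 4 each, *Cxcl2* and *Cxcl3* 3 each, and no peak carried the symbol *Cxcl16*. ATACseq uses a transposase that cuts and tags accessible DNA, so that reads pile up where chromatin is open. It was run on airway macrophages (AMs) of 4 *Scnn1b*-Tg and 3 wild-type (WT) mice, and the comparison asks whether muco-obstructive airway disease changes which regulatory DNA is open in these cells. *Scnn1b*-Tg mice carry an epithelial sodium channel subunit under the club cell secretory protein promoter, which drives it in airway epithelium and not in AMs. Both groups were 6-week-old female mice on a C57BL/6 background, the WT mice were littermates, and the cells were sorted as CD45+ Siglec-F+ CD11c+ and processed fresh, with no stimulation.

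CXC chemokines are small secreted proteins that steer leukocytes along a gradient. CXCL1, CXCL2, CXCL3 and CXCL5 carry the ELR motif, bind CXCR2 and draw neutrophils into the airway, and macrophages switch on several of them within hours of a bacterial signal through NF-kB. CXCL9 and CXCL10 bind CXCR3 on activated T cells and NK cells and are induced by interferons. CXCL14 is made constitutively by many epithelia, and CXCL16 is a membrane-bound ligand of CXCR6 that can be shed.

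The 5 promoters below are shown for their NF-kB sites or ISRE cores, the short elements bound by NF-kB and by IRF factors. Each runs 5′ to 3′ from 250 to 31 bases before the RefSeq start (GRCm38.p6), in lower case, with matches to the NF-kB motif and to the ISRE core in capitals.
Cxcl1 promoter, chr5:90890995-90891214, plus strand: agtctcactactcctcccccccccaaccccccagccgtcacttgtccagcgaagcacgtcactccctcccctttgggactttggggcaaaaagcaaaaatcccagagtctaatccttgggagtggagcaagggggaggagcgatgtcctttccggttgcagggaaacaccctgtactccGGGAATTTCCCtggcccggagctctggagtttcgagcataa
Cxcl2 promoter, chr5:90903649-90903868, plus strand: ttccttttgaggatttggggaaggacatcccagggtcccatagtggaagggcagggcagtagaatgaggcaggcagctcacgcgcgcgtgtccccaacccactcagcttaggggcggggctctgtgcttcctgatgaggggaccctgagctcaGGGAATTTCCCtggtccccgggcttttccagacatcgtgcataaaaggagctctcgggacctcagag
Cxcl3 promoter, chr5:90785851-90786070, plus strand: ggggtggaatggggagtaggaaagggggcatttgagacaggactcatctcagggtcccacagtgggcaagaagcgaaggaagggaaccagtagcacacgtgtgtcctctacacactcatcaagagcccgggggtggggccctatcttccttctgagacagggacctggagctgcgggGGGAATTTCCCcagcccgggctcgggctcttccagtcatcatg
Cxcl9 promoter, chr5:92328110-92328329, minus strand: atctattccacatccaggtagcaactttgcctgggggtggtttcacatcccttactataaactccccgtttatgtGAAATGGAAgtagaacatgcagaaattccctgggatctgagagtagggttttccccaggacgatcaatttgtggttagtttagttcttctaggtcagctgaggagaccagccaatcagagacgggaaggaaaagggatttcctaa
Cxcl10 promoter, chr5:92348920-92349139, minus strand: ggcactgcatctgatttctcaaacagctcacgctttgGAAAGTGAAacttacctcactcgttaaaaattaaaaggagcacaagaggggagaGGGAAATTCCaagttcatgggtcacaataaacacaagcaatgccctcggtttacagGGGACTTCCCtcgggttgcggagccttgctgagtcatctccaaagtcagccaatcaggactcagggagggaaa

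*Cxcl1*, *Cxcl2* and *Cxcl3* each held the same 11-base run gggaatttccc, on which 2 matches to the NF-kB motif overlap, at 71 to 61, 97 to 87 and 73 to 63 bases before the start. *Cxcl1* and *Cxcl2* shared 3 more bases beside it, in the run gggaatttccctgg. *Cxcl10* held 2 separate NF-kB matches, an ISRE core (GAAANNGAA) and, not capitalised, an AP-1 match (TGANTCA). *Cxcl9* held an ISRE core and no NF-kB match, and shared with *Cxcl10* the run cagccaatcag. The *Cxcl14* promoter, not shown, also held an ISRE core (gaaacagaa, 172 to 164 bases before the start) and a GAS match (TTCNNNGAA, 191 to 183), so the ISRE core was not limited to the interferon-induced genes. Of 32851 RefSeq promoter windows of the same 250 bases, searched on both strands, 3.90% held the NF-kB motif, 7.13% the ISRE core, 7.02% the GAS motif and 6.75% the AP-1 motif. The promoters of *Cxcl1*, *Cxcl2*, *Cxcl3*, *Cxcl10* and *Cxcl14* lay wholly inside a called peak in AMs. No called peak touched the 250 bases before the *Cxcl9* start. A match is a description of the letters and not evidence that a factor was bound.

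Of the 35 peaks, 3 ranked above 95% of all peaks in accessibility, where 5% of all peaks lie by definition. They belonged to *Cxcl1* and *Cxcl2*. Another 4 ranked among the lowest 5% of all peaks. All 4 belonged to *Cxcl5*, a neutrophil-attracting gene of the same cluster, so high accessibility was not shared by these genes. The scale here is the normalised read count, that is reads in a peak scaled by the authors with a TMM-type factor per library, per kb of peak and averaged over the 7 libraries. The peak 4.8 kb upstream of *Cxcl2*, which encodes the neutrophil attractant also called MIP-2, reached 2009 per kb and ranked above 98.6% of all peaks. The peak over the *Cxcl2* start reached 1723 per kb and the peak 5.8 kb downstream of *Cxcl1*, which encodes the chemokine also called KC, 1714 per kb, each above 97.6% of all peaks. The last of these and the upstream *Cxcl2* peak lie only 250 bases apart between the 2 genes (chr5:90897075-90897910 and chr5:90898161-90899042), so their assignment to *Cxcl1* and *Cxcl2* rests on the nearest start. The median peak of the table stood at 178.9 per kb and the median of the 35 CXC chemokine peaks at 269.8 per kb. Among the 14544 peaks that cover a start, the *Cxcl2* start ranked above 93.1%. The starts of *Cxcl3*, *Cxcl1*, *Cxcl10* and *Cxcl14* ranked above 42.8%, 40.9%, 33.6% and 25.1% of them.

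The centre of that upstream *Cxcl2* peak is shown because it was the most open of all 35 regions, with a match to the C/EBP motif (TTGCNNAA) in capitals.
Cxcl2 upstream peak, central bases, chr5:90898501-90898700, plus strand: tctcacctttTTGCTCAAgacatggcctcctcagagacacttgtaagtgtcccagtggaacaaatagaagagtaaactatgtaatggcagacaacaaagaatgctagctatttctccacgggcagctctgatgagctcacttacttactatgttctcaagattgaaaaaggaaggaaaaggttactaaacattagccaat

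Accessibility was low at some members. The start of *Cxcl5*, a neutrophil attractant made by epithelial cells, stood at 55.6 per kb, above only 3.62% of all peaks and above 2.00% of the 14544 peaks that cover a start. A peak 16.7 kb upstream of the same gene was far more open, at 1069 per kb and above 91.5% of all peaks. Summed over each gene's peaks and divided by their length, *Cxcl2* was highest at 1633 ± 291 per kb (SD over 7 libraries), then *Cxcl3* at 715 ± 63.3, *Cxcl1* at 587 ± 77.6, *Cxcl5* at 326 ± 25.1, *Cxcl10* at 309 ± 24.5, *Cxcl9* at 293 ± 115 and *Cxcl14* at 183 ± 24.4. *Cxcl2* exceeded *Cxcl3* in 7 of 7 libraries, *Cxcl3* exceeded *Cxcl1* in 7 and *Cxcl1* exceeded *Cxcl5* in 7. *Cxcl5*, *Cxcl10* and *Cxcl9* did not differ beyond their spread, since each exceeded the next in 4 of 7 libraries, and *Cxcl9* exceeded *Cxcl14* in 5.

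**Figure D1:**
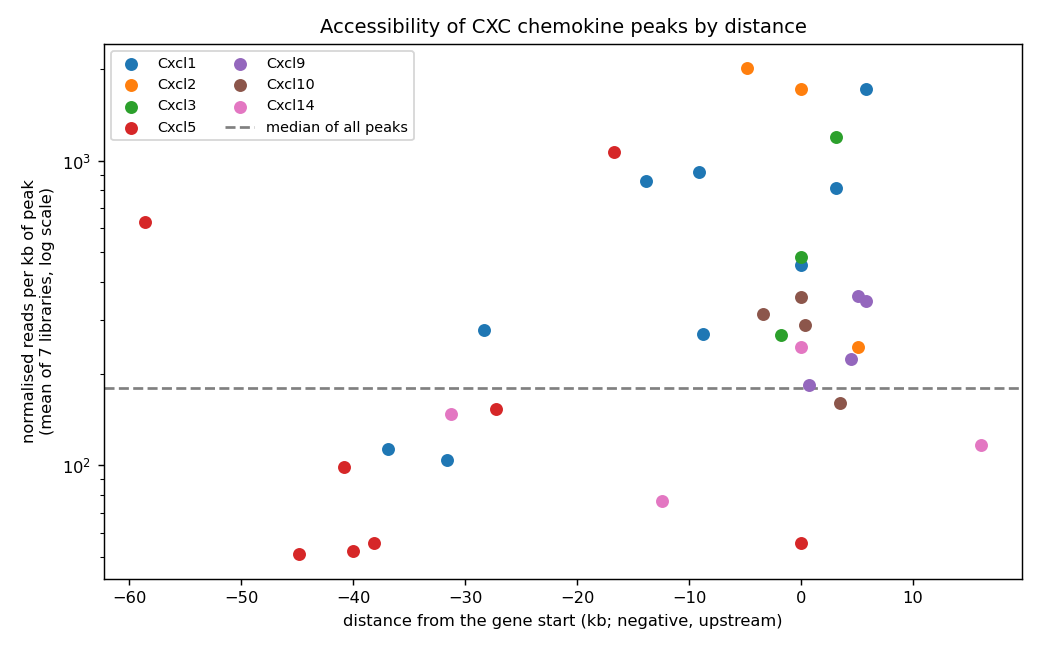
Each point is one of the 35 CXC chemokine peaks, with its distance from the gene start in kb on the x axis (negative is upstream) and its normalised reads per kb, averaged over 7 libraries, on a log y axis. The highest points are the *Cxcl2* peaks 4.8 kb upstream and at the start and the *Cxcl1* peak 5.8 kb downstream, while the *Cxcl5* start lies far below the median of all peaks (dashed).

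Much of the accessible DNA lay away from the genes. Of the 35 peaks, 20 (57.1%) were annotated as distal intergenic, against 26.8% of all peaks, 6 covered a start, 3 lay in the 3′ UTR of *Cxcl9* and 1 lay in an intron. The *Cxcl3* peak 3.1 kb past the start overlaps the 3′ end of the gene, and the *Cxcl10* peak 3.4 kb upstream lies within the span of *Art3*. Average counts ranged between 12.6 and 1956, with 2 peaks under 20.

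No CXC chemokine region was called different between *Scnn1b*-Tg and WT AMs. None of the 35 peaks passed an adjusted p of 0.05 in limma over all 90376 peaks, where 0.00111% of all peaks (1 peak) passed, and none had an unadjusted p under 0.05, against 2.01% of all peaks. None passed with edgeR's quasi-likelihood test or DESeq2 on the recovered reads either. The ranges of the genotypes overlapped at all 35 peaks, while they did not overlap at 3.23% of all peaks. With so few mice, this leaves the size of any change bounded only as far as the intervals below go, and p-values measure the spread between these samples, which the labels number but do not tie to the columns. In a bulk assay a change in the mix of cells and a change within each cell cannot be told apart.

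The direction was mixed. On the log2 scale 22 of 35 peaks were higher in *Scnn1b*-Tg AMs, against 47.8% of all peaks, and the median log2 fold change was 0.02, against −0.01 over all peaks. Without WT 2 the count was 13 of 35 and without *Scnn1b*-Tg 1 it was 17 of 35, so the majority direction turned with either library left out. Among the ELR genes 14 of 23 peaks were higher, among *Cxcl9* and *Cxcl10* 4 of 8 and for *Cxcl14* 4 of 4. The 95% confidence interval stayed within a 2-fold change in either direction at 28 peaks and within 1.5-fold at 14.

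**Figure D2:**
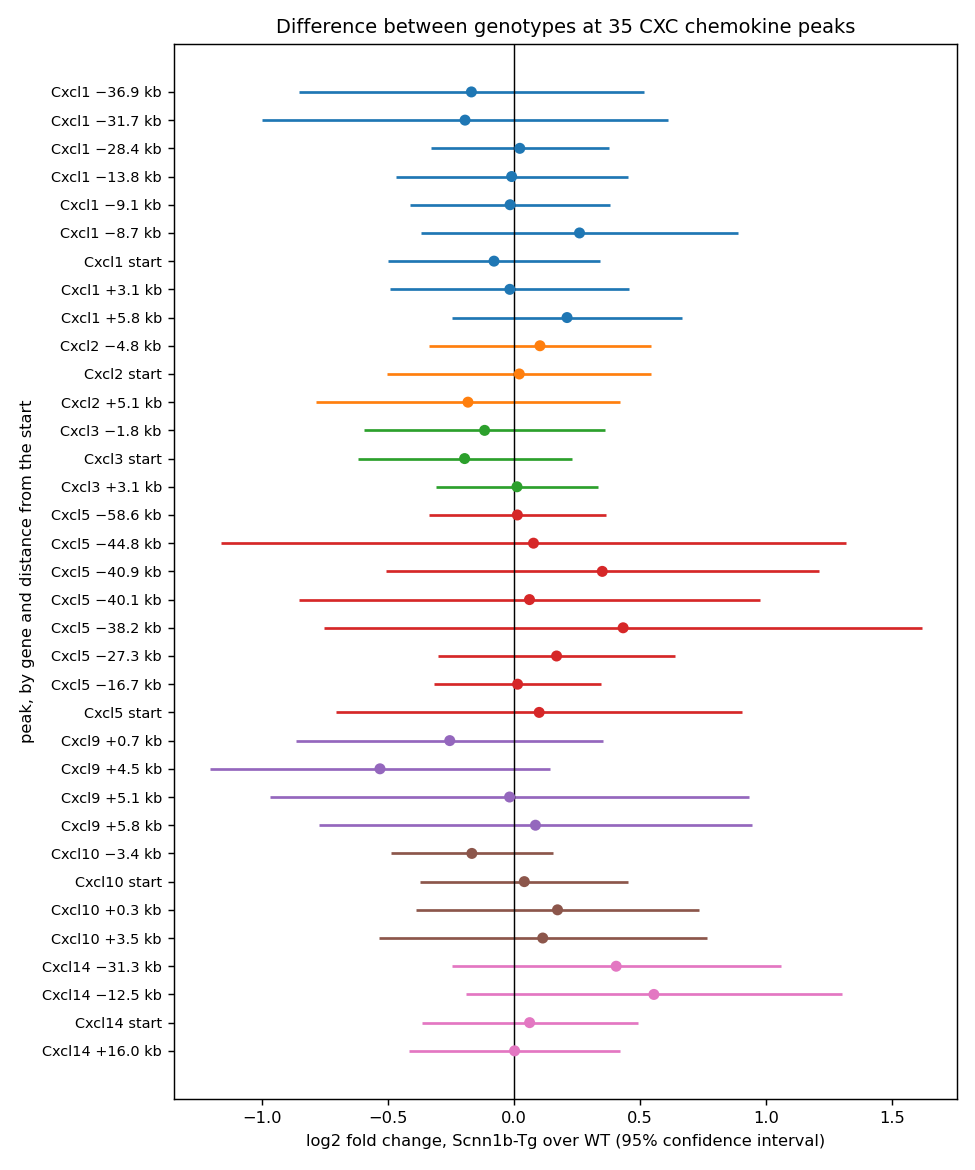
Points give the log2 fold change of *Scnn1b*-Tg over WT AMs for the 35 peaks, by gene and distance from the start, and lines give the limma 95% confidence interval. Every interval crosses 0, and the estimates lie between −0.53 (*Cxcl9*, 4.5 kb into the gene) and 0.56 (*Cxcl14*, 12.5 kb upstream).

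*Cxcl2* had its start at chr5:90903019-90904153. Normalised read counts there were 1825, 1387, 1971 and 2642 in *Scnn1b*-Tg AMs, against 1802, 1360 and 2703 in WT AMs. Both genotypes had one low and one high library, and the ranges lay almost on top of each other. The log2 fold change was 0.02 ± 0.24 (SE, limma adjusted p = 1.00), with a 95% confidence interval of −0.50 to 0.55. The upstream peak held 2438, 1393, 1993 and 1509 in *Scnn1b*-Tg AMs, against 2095, 1405 and 1567 in WT AMs, a log2 fold change of 0.10 ± 0.20 (SE). Here too each genotype spanned a similar range. A weak peak 5.1 kb downstream held 65.7, 69.8, 60.1 and 87.8 in *Scnn1b*-Tg AMs, against 80.8, 53.4 and 118 in WT AMs, with all 4 *Scnn1b*-Tg values between the lowest and the highest WT value.

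*Cxcl1* encodes a CXCR2 ligand that macrophages release early in infection. Its start (chr5:90890636-90892193) held 600.1, 627, 631 and 911 normalised reads in *Scnn1b*-Tg AMs, against 603, 685 and 907 in WT AMs. A single library of each genotype stood well above the rest, so the log2 fold change of −0.08 ± 0.19 (SE) was smaller than the spread. The downstream peak held 1931, 1138, 1792 and 1248 in *Scnn1b*-Tg AMs, against 1595, 1025 and 1304 in WT AMs, with a log2 fold change of 0.21 and a 95% confidence interval of −0.25 to 0.67. The other 7 *Cxcl1* peaks had log2 fold changes between −0.19 and 0.26.

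*Cxcl3* encodes another CXCR2 ligand, from the same cluster on chromosome 5. Its start (chr5:90785611-90786250) held 247, 316, 267 and 325 normalised reads in *Scnn1b*-Tg AMs, against 276, 426 and 304 in WT AMs. All 4 *Scnn1b*-Tg libraries lay below the highest WT library and on both sides of the other 2. The log2 fold change was −0.20 ± 0.19 (SE, limma adjusted p = 1.00). Over the gene's 3′ end, the counts of 1265, 1186, 1408 and 1051 in *Scnn1b*-Tg AMs and 1367, 1244 and 1044 in WT AMs gave a log2 fold change of 0.01.

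*Cxcl5*, whose product attracts neutrophils from the epithelial side, had low counts at its start (chr5:90758807-90760074). They were 52.3, 106, 45.9 and 82.9 in *Scnn1b*-Tg AMs, against 40.8, 56.9 and 108 in WT AMs. Values spread more than 2-fold within each genotype, and the confidence interval of the log2 fold change ran from −0.71 to 0.90. The open region 16.7 kb upstream was steadier, at 1065, 797, 958 and 935 in *Scnn1b*-Tg AMs and 1005, 793 and 992 in WT AMs. Its log2 fold change of 0.01 had a confidence interval of −0.32 to 0.35. The weak peak of smallest p, 40.9 kb upstream, held 51.1, 49.0, 74.3 and 87.2 in *Scnn1b*-Tg AMs, against 58.7, 23.7 and 86.8 in WT AMs. Its log2 fold change of 0.35 was −0.17 without WT 2, the lowest library.

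*Cxcl9*, an interferon-induced attractant of T cells, had the peak of smallest p in the family, which still missed an unadjusted p of 0.05. The peak lies in its 3′ UTR, 4.5 kb into the gene (chr5:92323324-92323626), and held 74.3, 69.8, 36.4 and 46.7 normalised reads in *Scnn1b*-Tg AMs, against 99.5, 91.3 and 54.8 in WT AMs. *Scnn1b*-Tg 1 and *Scnn1b*-Tg 2 lay between the WT values and the other 2 below them. The log2 fold change was −0.53, with a confidence interval of −1.21 to 0.14, and without WT 3 it was −0.80 and past an unadjusted p of 0.05, with a limma adjusted p of 0.999. The peak nearest to the start, 0.7 kb into the gene, held 53.6, 37.2, 42.7 and 52.2 in *Scnn1b*-Tg AMs, against 71.4, 61.7 and 37.7 in WT AMs. At the strongest *Cxcl9* peak, 5.1 kb into the gene, the values were 335, 207, 161 and 103 in *Scnn1b*-Tg AMs and 316, 230.1 and 89.1 in WT AMs, a 3.76-fold range between libraries with a log2 fold change of only −0.02.

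*Cxcl10*, the other interferon-induced CXCR3 ligand here, had its start at chr5:92348669-92349834. Counts were 438, 375, 353 and 517 in *Scnn1b*-Tg AMs, against 401, 339 and 486 in WT AMs, a log2 fold change of 0.04 ± 0.19 (SE). The genotypes covered nearly the same range. The upstream peak inside *Art3* held 576, 641, 506 and 604 in *Scnn1b*-Tg AMs, against 628, 710.3 and 619 in WT AMs. Here 3 *Scnn1b*-Tg libraries lay below all WT libraries and *Scnn1b*-Tg 2 lay among them, and the log2 fold change was −0.17 with a confidence interval of −0.49 to 0.15.

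*Cxcl14*, the constitutively expressed member on chromosome 13, had 324, 464, 380 and 448 normalised reads at its start (chr13:56295264-56296889) in *Scnn1b*-Tg AMs, against 298, 449 and 419 in WT AMs. The log2 fold change was 0.06 ± 0.20 (SE) and the ranges overlapped throughout. A weak peak 12.5 kb upstream held 24.3, 30.8, 23.7 and 26.4 in *Scnn1b*-Tg AMs, against 17.9, 11.9 and 25.1 in WT AMs. Its log2 fold change of 0.56 was the highest of the 35, with a confidence interval of −0.19 to 1.30, and it was 0.80 without WT 3 and 0.29 without WT 2.

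**Figure D3:**
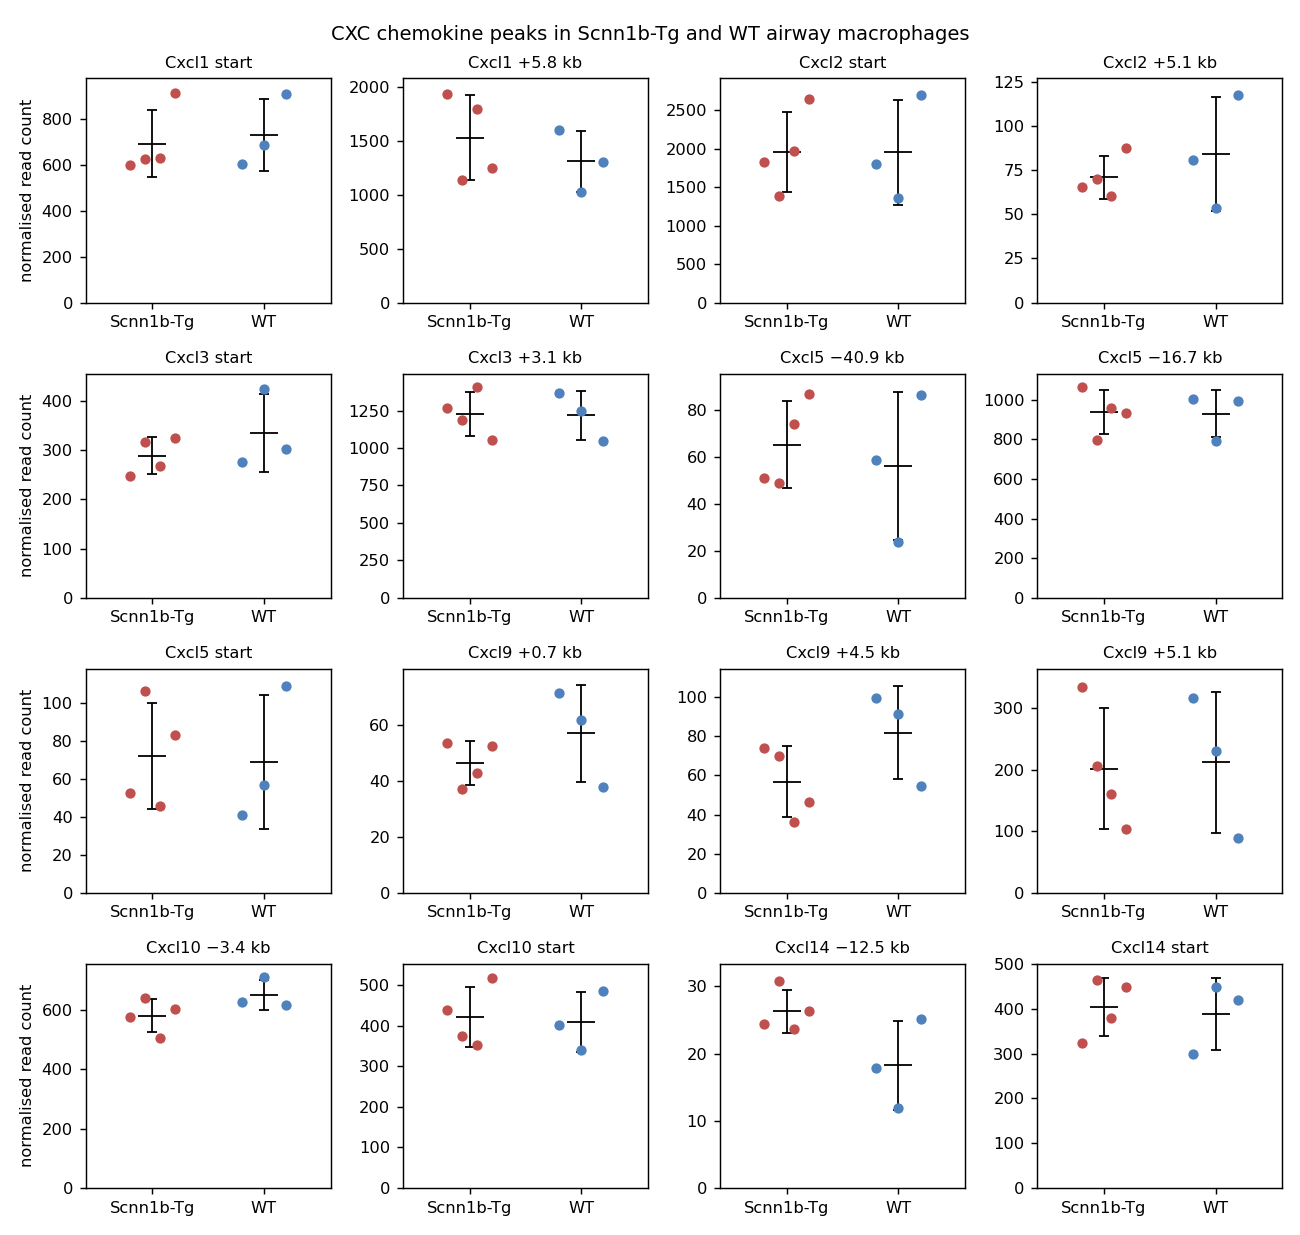
Each panel shows the normalised read count of one named peak in the 4 *Scnn1b*-Tg libraries (red, left) and the 3 WT libraries (blue, right), with the mean and SD in black; y axes start at 0. The genotypes overlap in all 16 panels, and the *Cxcl2* start spans 1387 to 2642 in *Scnn1b*-Tg and 1360 to 2703 in WT AMs.

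Summing the peaks of each gene gave no call either. In limma over 17797 genes no gene passed the adjusted threshold (0% of all genes), and none of the 7 CXC chemokine genes had an unadjusted p under 0.05, against 1.15% of all genes. By edgeR 0 and by DESeq2 16 of all genes passed, none of the 7 among them. The log2 fold changes ranged from −0.11 for *Cxcl9* to 0.09 for *Cxcl14*. They were bounded tightest for *Cxcl5*, at 0.04 with a 95% confidence interval of −0.20 to 0.29, and widest for *Cxcl9*, at −0.92 to 0.71.

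The spread between libraries had a pattern that did not follow genotype. On the first principal component of all peaks (43.6% of the variance) *Scnn1b*-Tg 1 and WT 1 lay at one end, at −90.4 and −76.3. WT 2, *Scnn1b*-Tg 2 and *Scnn1b*-Tg 3 lay between, at −32.3, −19.7 and 8.10. *Scnn1b*-Tg 4 and WT 3 stood apart from the other 5 libraries, at 101 and 110. At the starts of *Cxcl1*, *Cxcl2* and *Cxcl10* these 2 libraries were the 2 highest, and at the 3′ UTR peaks of *Cxcl9* 5.1 and 5.8 kb into the gene they were the 2 lowest. This was common among starts, since the same 2 libraries were the 2 highest at 54.9% of the 14544 peaks over a start and at 3 of the 6 member starts. Over the members they were the 2 highest at 8 of 35 peaks and the 2 lowest at 7, against 17197 and 16262 of all 90376 peaks. *Scnn1b*-Tg 1 and WT 1 were the 2 highest at 9 of 35 peaks, against 14.5% of all peaks. They were the 2 lowest at 2 of 35, against 15.9% of all peaks. Among peaks over a start they were the 2 lowest at 53.2%, and at 2 of the 6 member starts.

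**Figure D4:**
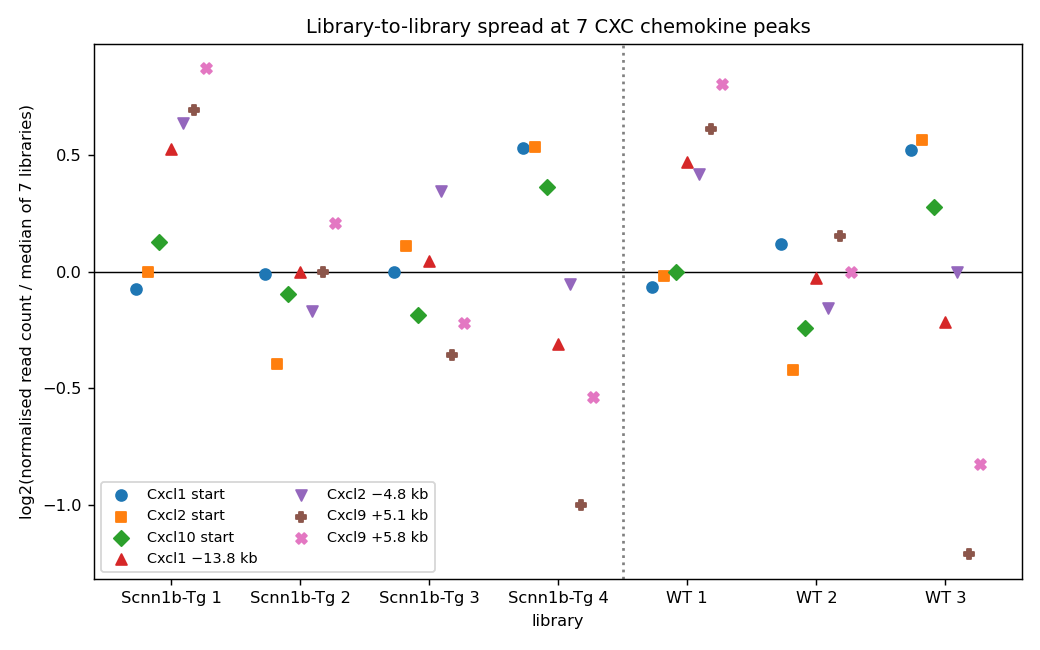
Points give the log2 of the normalised read count over the median of the 7 libraries, for the *Scnn1b*-Tg libraries (left of the dotted line) and the WT libraries. The 7 CXC chemokine peaks drawn are ones that show the pattern. *Scnn1b*-Tg 4 and WT 3 are high at the starts of *Cxcl1*, *Cxcl2* and *Cxcl10* and low at the *Cxcl9* peaks 5.1 and 5.8 kb into the gene. *Scnn1b*-Tg 1 and WT 1 are high at these *Cxcl9* peaks. Not drawn are the starts of *Cxcl3*, *Cxcl5* and *Cxcl14*, where *Scnn1b*-Tg 4 and WT 3 were not the 2 highest. The other *Cxcl9* peaks, where they were not the 2 lowest, are also left out.

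The share of normalised reads that fell in peaks over a start moved with this pattern, at 38.4%, 42.9%, 42.3% and 46.6% in *Scnn1b*-Tg AMs and 38.6%, 42.6% and 47.3% in WT AMs. Its part in the values at the chemokine starts was not tested. Without both libraries that stood apart, 18 of 35 peaks were higher in *Scnn1b*-Tg AMs, and the *Cxcl9* peak 4.5 kb into the gene had a log2 fold change of −0.72, past an unadjusted p of 0.05 but with a limma adjusted p of 1.00. The labels place the samples in numbered batches, most of which hold both genotypes, but the columns do not carry those numbers, so no value within a batch could be had.

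Other genes of the pathway were counted in the same limma fit. Of 17 peaks of other CXC ligands in 6 of 7 genes, 0 passed and 1 had an unadjusted p under 0.05, a peak 21.3 kb upstream of *Cxcl13*, which guides B cells, with a log2 fold change of 0.64. Of 69 peaks of CXC receptors in 7 of 8 genes, 0 passed and 1 had an unadjusted p under 0.05, against 2.01% of all peaks. That peak lies 3.3 kb past the start of *Cxcr1* and held 2055, 1995, 2111 and 1947 normalised reads in *Scnn1b*-Tg AMs, against 1526, 1682 and 1857 in WT AMs, a log2 fold change of 0.27 without overlap. It was 1 of 4 peaks without overlap among the 69, against 3.23% of all peaks. *Cxcr1* encodes a receptor for ELR chemokines.

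The list of 14 regulators of CXC chemokine genes and of shedding, which includes *Adam10* and *Adam17*, had 163 peaks. Of these 0 passed and 4 had an unadjusted p under 0.05, close to the 2.01% of all peaks. The one of smallest p lies 3.9 kb upstream of *Ifngr2*, which encodes a subunit of the interferon-gamma receptor. It held 190, 214, 297 and 209 normalised reads in *Scnn1b*-Tg AMs, against 106, 91.3 and 84.5 in WT AMs. Every *Scnn1b*-Tg library was above every WT library and the log2 fold change was 1.25 ± 0.20 (SE), with a limma adjusted p of 0.419. By DESeq2 it passed (adjusted p = 0.000271), and by edgeR it did not (adjusted p = 0.515). Lower values were found in *Scnn1b*-Tg AMs at 2 peaks upstream of *Irf8*, a transcription factor of the macrophage lineage, with log2 fold changes of −0.59 and −0.81, and at a peak of *Relb*, an NF-kB subunit, with −0.38. The *Irf8* peak of −0.59 ranged from 69.6 to 80.4 in *Scnn1b*-Tg AMs, against 97.1 to 126 in WT AMs. The *Relb* peak ranged from 150 to 192 in *Scnn1b*-Tg AMs, against 210 to 240 in WT AMs. The genotypes did not overlap at these 2 peaks but did at the other *Irf8* peak. Of the 163 peaks 5 had no overlap, against 3.23% of all peaks. Each of the 3 lower peaks missed the adjusted threshold (limma adjusted p = 1.00). No other peak of these lists or of the CC chemokines passed with either tool.

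Inflammatory CC chemokines, listed for comparison, had 54 peaks in 10 genes, of which 0 passed. A peak 4.2 kb upstream of *Ccl5*, a T cell attractant, held 47.5, 49.0, 50.6 and 68.8 normalised reads in *Scnn1b*-Tg AMs, against 19.6, 14.2 and 40.0 in WT AMs, a log2 fold change of 1.22 with a limma adjusted p of 1.00. The genotypes did not overlap there, as at 3.23% of all peaks. The CC chemokine peaks were higher in *Scnn1b*-Tg AMs in 40 of 54 cases, against 47.8% of all peaks, with a median log2 fold change of 0.06, against −0.01 over all peaks. Neighbouring peaks of one cluster are not independent, so this is a count only.

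Markers of the sorted cells and of cells that a sort could carry over were compared in the same way. AM markers had 142 peaks under 9 of 10 gene symbols, with a summed count of 45033 to 63263 in *Scnn1b*-Tg AMs and 45548 to 60898 in WT AMs. Neutrophil markers had 25 peaks in 7 of 8 genes, with 3238 to 3758 in *Scnn1b*-Tg AMs and 3228 to 3809 in WT AMs. No peak carried the symbol *Siglec5* or *Elane*. *Siglecf*, the gene of the Siglec-F sort marker and also on the AM list, did have peaks. Monocyte markers summed to 8751 to 10134 in *Scnn1b*-Tg AMs and 9103 to 10072 in WT AMs, lung epithelium markers to 12667 to 14146 in *Scnn1b*-Tg AMs and 12486 to 13731 in WT AMs, with no peak at *Sftpc*, and T and B cell markers to 2168 to 3402 in *Scnn1b*-Tg AMs and 2272 to 3409 in WT AMs. The monocyte, lung epithelium and T and B cell lists held 19, 49 and 8 peaks. Peaks higher in *Scnn1b*-Tg AMs numbered 61 of 142 for AM, 15 of 25 for neutrophil and 3 of 19 for monocyte markers. They numbered 26 of 49 for lung epithelium and 2 of 8 for T and B cell markers, against 47.8% of all peaks. The median log2 fold change at monocyte markers was −0.07, against −0.01 over all peaks. Peaks of one gene are not independent, so these are counts only. No marker peak had an unadjusted p under 0.05 in limma, against 2.01% of all peaks, or in DESeq2, against 1699 of 90376. In edgeR 1 AM marker peak had an unadjusted p under 0.05, against 1768 of 90376. Median accessibility was 244.5 per kb at AM markers, 219 at monocyte markers and 210 at lung epithelium markers. It was 122 per kb at neutrophil markers and 120 at T and B cell markers, against 178.9 over all peaks.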

How the data were processed

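Whole-genome accessibility was measured by Omni-ATAC in FACS-sorted AMs. The deposited table held one signal column per library, read counts in consensus peaks (DiffBind, mm10) that the authors had scaled with edgeR's TMM, and peaks annotated with ChIPseeker, whose distance runs from the nearest peak edge to the gene start. Consensus peaks were those present in at least 2 samples. Division by each column's smallest step gave whole reads for 100% of values, within 0.001 reads. Libraries held 20971521 to 56121809 reads in peaks, a 2.68-fold range. No 2 libraries were identical. The table's columns of the authors' own comparison (mean log2 signal, fold change, p-value and FDR) were not used.

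The test was limma 3.58.1 (R 4.3.3, trended and robust variances) on log2(normalised count + 1), fitting genotype alone, with two-sided p-values adjusted by Benjamini-Hochberg over 90376 peaks or, for sums per gene symbol, 17797 genes, past an adjusted p of 0.05. Fold changes on this scale understate those of low counts. The members and all lists were chosen with earlier results of these data known. Named with values in every library were, for each gene, the peak nearest to the start, the peak of highest mean and the peak of smallest p. The *Cxcl2* peak 4.8 kb upstream falls outside this rule and was added after its values were seen. Genes of the other lists were named only where a peak had an unadjusted p under 0.05. Alternatives were pseudocounts of 0.5 and 5, a minimum mean of 20, quantile and median scaling, limma without trend, edgeR 4.0.16 and DESeq2 1.42.0 on recovered reads, each library left out, and both outlying libraries left out. Motifs were searched on both strands of GRCm38.p6 (the mm10 assembly) and RefSeq promoters. Promoters were matched for 6 of the 8 genes, not for *Cxcl5* and *Cxcl16*. Gene spans came from GENCODE M21. Figures were drawn with matplotlib 3.10.9.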

Additional observations from a re-analysis of the deposited data

Results flagged for a closer look

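At the *Cxcl1* start, *Scnn1b*-Tg 4 held 911 normalised reads, against 600.1 to 631 in the other 3 *Scnn1b*-Tg libraries, a gap of 0.901 of the whole range. It was 1 of 42 sets of 4 *Scnn1b*-Tg values examined to stand out in this way, and chance alone gives about 5%. WT 3 held 907 normalised reads at the same peak, and both libraries also stood apart over all peaks.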

How the results depend on the processing

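No paired analysis was possible because the columns of the table do not carry the replicate numbers of the labels. Of the 35 CXC chemokine peaks and 7 gene sums, 0 passed the adjusted threshold under any alternative. Over all features, 1 peak and 0 gene sums passed in the main test. Peaks that passed numbered 0 with limma without trend, 0 with edgeR, 47 with DESeq2 and 0 to 0 when each library was left out, and gene sums 16 with DESeq2 and 1 without both libraries that stood apart. The cause was not tested. Chemokine peaks at an unadjusted p under 0.05 numbered 0 to 1 with each library left out (1 without WT 3) and 1 without both libraries that stood apart. Those higher in *Scnn1b*-Tg AMs numbered 13 (without WT 2) to 23 (without WT 1). Log2 fold changes turned sign in 35 of 368 recomputed values, for 17 of 23 peaks and gene sums, and 0 of these passed in either direction. The one furthest from 0 among them was the *Cxcl5* peak 40.9 kb upstream, at 0.35, against −0.17 without WT 2. DESeq2 gave −0.00042 at the *Cxcl2* start, and leaving out both libraries gave −0.023 at the *Cxcl3* peak 3.1 kb downstream. With each library left out, log2 fold changes at starts ranged from −0.22 to 0.085 for *Cxcl1*, −0.21 to 0.28 for *Cxcl2*, −0.21 to 0.48 for *Cxcl5*, −0.086 to 0.17 for *Cxcl10* and −0.12 to 0.18 for *Cxcl14*. At other peaks they ranged from −0.47 to 0.094 (*Cxcl2*, 5.1 kb downstream), −0.095 to 0.099 (*Cxcl3*, 3.1 kb downstream), −0.17 to 0.75 and −0.097 to 0.090 (*Cxcl5*, 40.9 and 16.7 kb upstream) and −0.55 to 0.36 (*Cxcl9*, 5.1 kb into the gene). For gene sums they ranged from −0.048 to 0.16 (*Cxcl1*), −0.13 to 0.20 (*Cxcl2*), −0.14 to 0.016 (*Cxcl3*), −0.049 to 0.11 (*Cxcl5*), −0.52 to 0.21 (*Cxcl9*), −0.12 to 0.00048 (*Cxcl10*) and −0.054 to 0.17 (*Cxcl14*). The smallest member count was 4 reads, and the interval of the log2 fold change reached beyond a 2-fold change at 7 of 35 peaks.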

Other observations

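*Cxcl16*, a membrane-bound chemokine and scavenger receptor, had no peak under its own symbol. Its GENCODE M21 start on chromosome 11 (gene chr11:70453983-70459984) lies inside a peak (chr11:70459127-70460277) that carries the symbol of its divergent neighbour *Zmynd15*. This peak was looked up after the values were seen and is not among the 35. It held 206, 325, 249.9 and 377 normalised reads in *Scnn1b*-Tg AMs, against 190, 259 and 355 in WT AMs, with a log2 fold change of 0.12 (limma adjusted p = 1.00). The genotypes overlapped.

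In the central 200 bases of the 35 peaks, the C/EBP motif (TTGCNNAA) was found in 9 (25.7%), against 12.0% of all peaks. The AP-1 motif was found in 4, against 8.92% of all peaks, the NF-kB motif in 1, against 2.61%, the ISRE core in 1, against 7.07%, and the GAS motif (TTCNNNGAA) in 0, against 6.61%. Several of these regions neighbour each other, and the counts are a description.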
